A study of Mus musculus with 52 samples.

Results

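The 2 mature strands of the mouse miR-22 hairpin, miR-22-3p and miR-22-5p, were followed through small RNA libraries of 2 hippocampal subregions. They are 2 of the 1900 miRNAs in the deposited counts and were taken by name, because miR-22-3p was among the most abundant miRNAs of the series. Their mean abundance is therefore given as a description, with no test. All mice were of the strain C57B/6JRj and 20 weeks of age per the labels, and no transgene or drug is named for any group. They lived either in a home cage (HC) or in environmental enrichment (EE), usually a larger cage furnished with objects to explore, for 2 or for 10 weeks. From the hippocampus were dissected CA, where the pyramidal neurons lie, and the dentate gyrus (DG), where granule neurons lie and are born throughout life. The CA groups held 6 libraries after 2 weeks in the home cage (2wHC_CA), 7 after 2 weeks of enrichment (2wEE_CA), 6 after 10 weeks in the home cage (10wHC_CA) and 8 after 10 weeks of enrichment (10wEE_CA). The matching DG groups held 6 (2wHC_DG), 5 (2wEE_DG), 6 (10wHC_DG) and 8 (10wEE_DG). Neither the number of animals behind the libraries nor any sharing of animals between CA and DG is given in the labels. The p-values therefore measure only how these samples spread, and that spread may be technical.

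A miRNA hairpin is cut into a short duplex, of which usually 1 strand, the guide, is kept in an Argonaute protein and directs it to mRNAs that match the seed near the 5′ end of the strand. miR-22 is made from the noncoding host RNA Mir22hg and is found in many tissues, brain, heart and muscle and the erythroid lineage among them. Its 3p strand is the one usually kept, and the reported targets include the histone deacetylase Hdac4, the corepressor Rcor1 and the methylcytosine dioxygenase Tet2.

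The mature strands are shown because each seed decides which mRNAs a strand can match. They are written 5′ to 3′ in lower case, with the seed (bases 2 to 8) in capitals.
mmu-miR-22-3p: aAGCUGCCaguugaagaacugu
mmu-miR-22-5p: aGUUCUUCaguggcaagcuuua
The hairpin is shown because both arms are compared within each library. Capitals mark first the 5p and then the 3p strand.
Mir22: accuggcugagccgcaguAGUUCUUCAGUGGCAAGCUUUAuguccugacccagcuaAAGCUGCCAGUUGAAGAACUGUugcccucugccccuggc
The sequences are those of RefSeq on GRCm38.p6, the build named mm10 in the submitters' processing notes. On it the hairpin of 95 bases lies at chr11:75463716-75463810 on the plus strand, miR-22-5p at chr11:75463734-75463755 and miR-22-3p at chr11:75463772-75463793. In the GENCODE annotation of that build the hairpin lies in exon 2 of the noncoding gene Mir22hg (chr11:75461539-75466676). The same bases are in exon 2 of a transcript of the protein-coding gene Tlcd2 that is annotated as noncoding. A predicted fold of the hairpin paired 19 bases between the arms around a loop of 16 bases and had a minimum free energy of -41.9 kcal/mol. Of 1679 mouse mature miRNAs searched, 0 others held either seed, so that neither strand belongs to a seed family with another member in that table. Each strand is encoded by 1 hairpin, and its counts cannot be split between copies as those of duplicated miRNAs can.

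The libraries held 480792 to 6706855 miRNA counts, with medians of 4189269 in CA and 2093319 in DG. Abundance is given as CPM, the counts of a miRNA scaled to a library total of 1000000 miRNA counts, and a floor of 3 counts stood at 0.447 to 6.24 CPM. Library 3 of 10wEE_CA held the fewest counts and stood apart from the others of its group, so tests that include it are given with and without it where they changed. The neuronal miRNA miR-128-3p was read at 11231 to 27160 CPM in all 52 libraries. miR-124-3p, a neuronal miRNA made from several hairpins, was at or near 0, with 0 to 1.44 CPM, and the cause was not tested. All samples are pieces of tissue, in which a larger share of cells of a type and more RNA per cell cannot be told apart.

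miR-22-3p held the second place of all miRNAs in 52 of 52 libraries. Its mean was 89577 ± 9575 CPM (SD, n = 52), and it took 6.27 to 11.2% of the miRNA counts of a library. The places just above and just below it were held by miR-127-3p, an imprinted miRNA of the Dlk1-Dio3 region, at 171646 ± 47082 CPM, and by miR-125a-5p, a homologue of worm lin-4, at 53552 ± 12749 CPM. miR-22-5p, from the other side of the same hairpin, had a mean of 74.2 ± 16.1 CPM (SD, n = 52) and the 256th place, between miR-329-3p (74.8 CPM) and miR-7224-3p (72.2 CPM). It made up 0.0334 to 0.133% of the counts of both strands, with a mean of 0.0844%. These places are among reads aligned to a single position, so that miRNAs with several hairpins can stand too low.

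The level of miR-22-3p varied little among libraries for so abundant a miRNA. Its coefficient of variation over the 52 libraries was 10.7%, the third lowest among the 50 most abundant miRNAs, where miR-30d-5p had the lowest (6.20%). Without library 3 of 10wEE_CA it was 9.85%, and its place among the 50 was the 7th lowest. The coefficient of miR-22-5p was 21.7%, with far fewer counts behind each value. Over all libraries the deviations of both strands from their group means had a Spearman correlation of -0.10 (n = 52 libraries, with both strands read in the same library).

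Enriched and home cage libraries were first compared within each region and time. In DG after 2 weeks, miR-22-3p was read at 86927 to 98733 CPM in the 6 home cage libraries, with a median of 91771 CPM. The 5 enriched libraries 1 to 5 held 108363, 105512, 105784, 111051 and 112393 CPM. All 5 enriched libraries lay above all 6 of the home cage, and the groups did not overlap. Of the 525 miRNAs tested in DG, 3 (0.571%) had such a gap with enrichment on the upper side. With TMM-normalized CPM the groups were still apart, since the highest home cage library reached 99760 CPM and the lowest enriched one 103323 CPM.

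The means in DG after 2 weeks were 92146 ± 4058 CPM in the home cage (SD, n = 6) and 108621 ± 3079 CPM with enrichment (SD, n = 5). The log2 fold change was 0.23 ± 0.08 (SE), or 1.17-fold (adjusted p = 0.506 in edgeR's quasi-likelihood test over all 525 miRNAs). The difference did not pass the threshold of 0.05 after adjustment. It had the 7th smallest p of the contrast before adjustment, in which 3 miRNAs (0.571%) passed. In the fits with other scalings, filters and tools the adjusted p ranged from 0.181 to 0.853, and in fits that each left out 1 library from 0.235 to 0.782.

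Other cell types were measured through marker miRNAs in the same libraries. The oligodendrocyte list (3 miRNAs, of which miR-219a-5p was at or near 0) summed to 1892 to 2466 CPM in 2wHC_DG and to 2113 to 2447 CPM in 2wEE_DG. The erythrocyte list (5 of 7 listed miRNAs are in the counts) summed to 182 to 303 and to 185 to 298 CPM. The vascular list (4 miRNAs, of which miR-126a-5p was at 0) summed to 14332 to 58338 and to 16984 to 35157 CPM. The ranges of both housings overlapped for each of these 3 sums. The neuron list (4 miRNAs) summed to 21128 to 28554 and to 19437 to 28574 CPM. Microglia and leukocyte miRNAs (2 of 4 listed are in the counts) lay at 215 to 322 and 230 to 265 CPM, and the choroid plexus list (4 of 4) at 15592 to 21527 and 15422 to 18356 CPM. Some sums rested mainly on a single miRNA. Over all 52 libraries miR-128-3p had a mean of 18695 CPM, and the other neuron miRNAs at most 1172 CPM. In the vascular list miR-143-3p had a mean of 23118 CPM, and the others at most 2256 CPM. Within the DG groups the deviations of miR-22-3p had a Spearman correlation of 0.64 with those of the oligodendrocyte sum and -0.39 with those of the erythrocyte sum (n = 25 libraries, which share depth and scaling between miRNAs). The other lists had -0.13 (vascular) to 0.25 (neuron) in DG. Within the CA groups the values were -0.05 for the oligodendrocyte, -0.17 for the erythrocyte and -0.62 for the vascular sum (n = 27 libraries). The part of these cells in the difference was not tested.

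In DG after 10 weeks, the home cage libraries held 79271 to 104857 CPM of miR-22-3p (median 84510) and the enriched ones 80280 to 104610 CPM (median 89701). The ranges overlapped almost fully, although 6 of 8 enriched libraries exceeded the mean of the home cage. The means were 86799 ± 9159 CPM (SD, n = 6) and 90691 ± 7388 CPM (SD, n = 8), and the log2 fold change was 0.09 ± 0.07 (SE, adjusted p = 0.935 in edgeR). In that contrast 2 of 525 miRNAs (0.381%) passed. The highest home cage value came from library 2, at 104857 CPM against 79271 to 85760 CPM in the other 5. The same library had the highest oligodendrocyte sum of its group, 3499 CPM against 2104 to 2462 CPM. It also held the fewest miRNA counts of its group, 1344283. Of all libraries it had the lowest miRNA share of the reads (22.5%) and the highest share aligned to several places (71.0%). The part of oligodendrocytes or of these shares in its miR-22-3p was not tested.

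In CA after 2 weeks, miR-22-3p ranged from 81620 to 90666 CPM in the home cage (median 86295) and from 79403 to 97059 CPM with enrichment (median 89017). Of the 7 enriched libraries, 3 exceeded all those of the home cage and 2 lay below all of them. The means were 86231 ± 4092 CPM (SD, n = 6) and 89352 ± 6997 CPM (SD, n = 7), and the log2 difference was 0.10 ± 0.08 (SE, adjusted p = 0.999 in edgeR). Of the 581 miRNAs tested in CA, 0 passed in this contrast (0%) in edgeR, with 35 at an unadjusted p under 0.05. DESeq2 called 1 and limma voom 0. These counts rest on library 3 of 10wEE_CA, which shares the CA fit. Without it 9 of 580 miRNAs passed (1.55%) and 61 had an unadjusted p under 0.05, while miR-22-3p had 0.09 ± 0.06 (adjusted p = 0.646). A fit of only the groups compared called 6 miRNAs.

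In CA after 10 weeks, the home cage libraries held 78262 to 86732 CPM (median 81735) and the enriched ones 62672 to 98583 CPM (median 85129). Library 3 of 10wEE_CA gave the lowest value and the other 7 started at 81957 CPM, while 4 of 8 exceeded all those of the home cage. The means were 81895 ± 3408 CPM (SD, n = 6) and 85183 ± 10910 CPM (SD, n = 8), or 88399 ± 6506 CPM without library 3 (n = 7). The log2 fold change of 0.07 ± 0.08 (SE, adjusted p = 0.887 in edgeR) became 0.13 ± 0.06 without that library (adjusted p = 0.579). Again 0 of 581 miRNAs passed (0%) in edgeR, DESeq2 or limma voom, with 30 at an unadjusted p under 0.05 in edgeR. Without library 3, 3 of 580 passed (0.517%), and 45 had an unadjusted p under 0.05. Library 3 of 10wEE_CA also had the highest erythrocyte sum, 1115 CPM against 372 to 461 CPM in the rest of its group, and the highest oligodendrocyte sum, 12007 against 6460 to 7075 CPM. Its microglia and leukocyte (503 against 211 to 258 CPM), neuron (21725 against 17265 to 20058) and vascular sums (31664 against 19448 to 26747) were also the highest of the group. So was that of a hindbrain list of 2 miRNAs (659 against 261 to 368 CPM). Only its choroid plexus sum (13469 CPM) lay within the range of the others. The part of any of these, or of its low depth, in its low miR-22-3p was not tested.

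**Figure D1:**
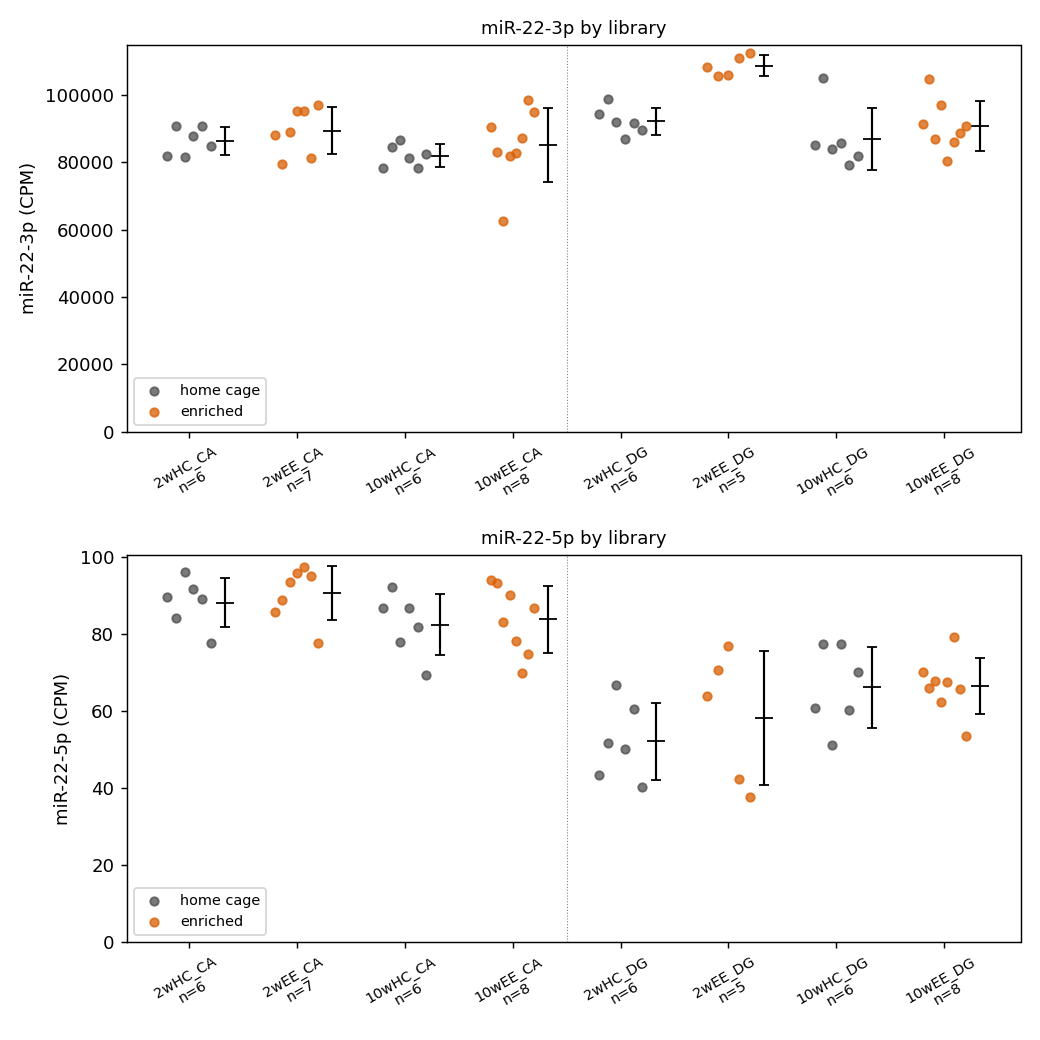
Abundance of miR-22-3p (upper) and miR-22-5p (lower) in CPM in each of the 52 libraries, by group. Points are libraries, bars are the mean ± SD; for miR-22-3p the 5 libraries of 2wEE_DG lie at 105512 to 112393 CPM, above all 6 of 2wHC_DG.

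Enriched libraries thus had the higher mean of miR-22-3p in each of the 4 strata of region and time. The mean of the 4 log2 fold changes was 0.13 ± 0.04 (SE, adjusted p = 0.109 in edgeR over 593 miRNAs) and did not pass. In this contrast 11 of 593 miRNAs passed (1.85%), 10 of them (1.69%) higher with enrichment. Without library 3 of 10wEE_CA the value was 0.14 ± 0.03 and passed (adjusted p = 0.00339), as did 24 of 594 miRNAs (4.04%), and without library 5 of 10wEE_DG it was 0.14 and passed too (adjusted p = 0.0395). The call therefore rests on which libraries enter.

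Whether the effect of enrichment differed between times or regions was tested as such. In DG the effect on miR-22-3p after 10 weeks minus that after 2 weeks was -0.14 ± 0.11 on the log2 scale (SE, adjusted p = 0.993 in edgeR), and in CA -0.03 ± 0.11 (adjusted p = 0.994). The effect in DG minus that in CA was 0.11 ± 0.12 after 2 weeks (adjusted p = 0.999) and 0.03 ± 0.11 after 10 weeks (adjusted p = 0.996). No difference between the effects was detectable for miR-22-3p in edgeR. These contrasts called 0 miRNAs (0%) in edgeR, DESeq2 and limma voom, with 13 to 25 at an unadjusted p under 0.05 in edgeR.

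For miR-22-5p, the strand with fewer counts, the housings overlapped in all 4 strata. In DG after 2 weeks the home cage libraries held 40.2 to 66.7 CPM (median 51.1), and the enriched libraries 1 to 5 held 64.0, 70.6, 76.9, 42.3 and 37.6 CPM. The highest and the lowest values both came from enriched libraries, and the log2 fold change was 0.16 ± 0.15 (SE, adjusted p = 0.999 in edgeR). In DG after 10 weeks the ranges were 51.2 to 77.5 CPM (median 65.3) and 53.4 to 79.2 CPM (median 66.8), and the log2 difference was 0.04 ± 0.13 (SE, adjusted p = 0.955).

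In CA the 5p strand ranged from 77.7 to 96.0 CPM in 2wHC_CA (median 89.3) and from 77.6 to 97.3 CPM in 2wEE_CA (median 93.6). After 10 weeks it ranged from 69.3 to 92.2 CPM in the home cage (median 84.3) and from 70.0 to 94.0 CPM with enrichment (median 85.0). The log2 fold changes were 0.09 ± 0.08 (SE, adjusted p = 0.999 in edgeR) and 0.03 ± 0.08 (adjusted p = 0.919). The mean over the 4 strata was 0.08 ± 0.06 (adjusted p = 0.754), so that no housing difference in miR-22-5p passed the test.

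The 2 times were then compared within each housing. The comparison of the enriched groups was added after the data had been seen, and it shares 2wEE_DG with the housing comparison above. In enriched DG, all 8 libraries of 10 weeks, at 80280 to 104610 CPM of miR-22-3p, lay below all 5 of 2 weeks, at 105512 to 112393 CPM. Such a gap, with 10 weeks lower, was seen for 10 of 525 miRNAs (1.9%). The log2 fold change was -0.29 ± 0.07 (SE, adjusted p = 0.0148 in edgeR), in a contrast where 52 of 525 miRNAs (9.9%) passed, 28 of them (5.33%) with lower values. miR-22-3p was thus lower in the enriched DG libraries of 10 weeks than in those of 2 weeks. No difference from the change in home cage DG was detectable (-0.14 ± 0.11, SE, adjusted p = 0.993 in edgeR). The labels do not say whether 20 weeks was the age at the start or the end of housing. The times may therefore differ in age as well as in duration. The erythrocyte sum was 185 to 298 CPM in 2wEE_DG (mean 223) and 271 to 534 CPM in 10wEE_DG (mean 376). In that order the neuron sums were 19437 to 28574 CPM (mean 23090) and 16196 to 23800 CPM (mean 20553). The vascular sums were 16984 to 35157 CPM (mean 23893) and 13029 to 63186 CPM (mean 31646). The oligodendrocyte sums were 2113 to 2447 and 2000 to 2545 CPM. Mean sums were 247 and 270 CPM for microglia and leukocytes and 17149 and 16131 CPM for the choroid plexus. Those of a hindbrain list (2 miRNAs) were 291 and 481 CPM. The part of any of these in the fall was not tested. Without library 5 of 2wEE_DG the log2 fold change of miR-22-3p was -0.26 (adjusted p = 0.0521 in edgeR) and no longer passed. With the log2 library total as a covariate it was -0.20 (adjusted p = 0.126).

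In home cage DG, 5 of 6 libraries of 10 weeks lay below every library of 2 weeks, and library 2 lay above every one. The log2 fold change was -0.16 ± 0.08 (SE, adjusted p = 0.166 in edgeR), in a contrast where 84 of 525 miRNAs (16%) passed. Without library 2 of 10wHC_DG it was -0.22 and passed (adjusted p = 0.0359). In CA the differences were -0.04 ± 0.09 in the home cage (SE, adjusted p = 0.971) and -0.07 ± 0.08 with enrichment (adjusted p = 0.658), where 0% and 2.58% of 581 miRNAs passed in edgeR. For the home cage contrast in CA, 35 miRNAs had an unadjusted p under 0.05 in edgeR, and DESeq2 called 3 and limma voom 0. Without library 3 of 10wEE_CA, 12 of 580 miRNAs (2.07%) passed in the home cage and 55 (9.48%) with enrichment. The values of miR-22-3p were then -0.05 ± 0.06 (adjusted p = 0.675) and -0.01 ± 0.06 (adjusted p = 0.892).

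The 5p strand did not pass in any comparison of times. Its log2 fold changes from 2 to 10 weeks were 0.26 ± 0.14 in home cage DG (SE, adjusted p = 0.208 in edgeR) and 0.15 ± 0.14 in enriched DG (adjusted p = 0.541). In CA they were -0.06 ± 0.09 (adjusted p = 0.971) and -0.11 ± 0.08 (adjusted p = 0.449). In DG the signs were thus opposite to those of the 3p strand, and the ratio of the strands is described further on.

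The regions were compared over the 4 strata, and the strands differed in opposite directions. miR-22-5p was lower in DG, by -0.53 ± 0.06 on the log2 scale (SE, adjusted p = 6.03e-12 in edgeR). miR-22-3p was slightly higher in DG, by 0.11 ± 0.04 (adjusted p = 0.014), but not without a filter on low counts (0.055, adjusted p = 0.439). Differences between the regions were common, since 461 of 593 miRNAs (77.7%) passed, 214 higher (36.1%) and 247 lower (41.7%) in DG.

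By stratum, the 3p values were 0.15 ± 0.09 in 2wHC (SE, adjusted p = 0.131 in edgeR), 0.25 ± 0.09 in 2wEE (adjusted p = 0.01), 0.01 ± 0.09 in 10wHC (adjusted p = 0.958) and 0.03 ± 0.07 in 10wEE (adjusted p = 0.712). In that order 59.7, 57.8, 49.7 and 58.3% of the 593 miRNAs passed. For the 3p strand only the enriched libraries of 2 weeks had no overlap between the regions, with the 5 DG libraries above all 7 of CA; 19.6% of the 593 miRNAs had such a gap with DG higher. The values of 2 weeks were larger than those of 10 weeks, and whether they differ was not tested. Over the 4 strata the difference was 0.13 without library 3 of 10wEE_CA (adjusted p = 0.000317).

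For the 5p strand the regional values were -0.70 ± 0.12 in 2wHC, -0.65 ± 0.12 in 2wEE, -0.39 ± 0.12 in 10wHC and -0.39 ± 0.10 in 10wEE (SE, adjusted p between 1.59e-06 and 0.00369 in edgeR). At 2 weeks every DG library lay below every CA library in both housings, as 25.3% of miRNAs did in the home cage and 23.3% with enrichment. At 10 weeks 3 of 6 and 6 of 8 DG libraries lay below every CA library. DG libraries also held fewer counts, which is described with the ratio of the strands. The oligodendrocyte sum lay at 1892 to 3499 CPM in DG and 5750 to 12007 CPM in CA, and the choroid plexus sum at 13548 to 21527 CPM in DG and 7577 to 19092 CPM in CA, and their part in either strand's difference was not tested.

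**Figure D2:**
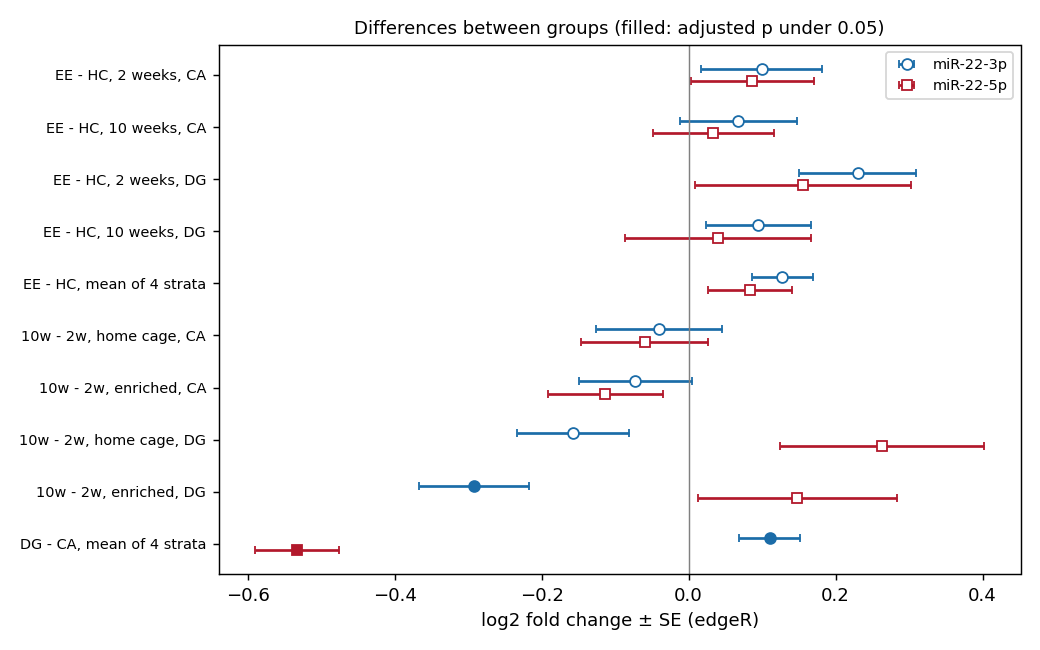
Log2 fold changes of miR-22-3p (circles) and miR-22-5p (squares) with their SE from edgeR for 10 contrasts, filled where the adjusted p was under 0.05. The filled markers are the 3p strand in enriched DG from 2 to 10 weeks (-0.29) and both strands between the regions (0.11 and -0.53).

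The ratio of the strands, log2 of 3p counts over 5p counts with 0.5 added to each, does not depend on how libraries are scaled. Over all libraries its mean was 10.26 ± 0.43 (SD, n = 52), with 40 to 644 counts of the 5p strand behind it. Of 133 hairpins that could be compared (both strands named, each made from 1 hairpin, and the higher strand at a mean of at least 100 CPM), miR-22 had the 15th largest ratio in size. The median size was 5.15, and the 3p strand was the higher one in 66 of the 133. The strand bias of miR-22 was therefore large but not extreme among these hairpins.

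The ratio showed no detectable housing difference. In 2wHC_DG it ran from 10.42 to 11.11 (median 10.82), and in the 5 libraries of 2wEE_DG it was 10.72, 10.54, 10.42, 11.35 and 11.53. The difference of means, enriched minus home cage, was 0.11 (exact two-sided permutation p = 0.643). It was 0.05 after 10 weeks in DG (exact permutation p = 0.659), 0.01 after 2 weeks in CA (exact permutation p = 0.918) and 0.02 after 10 weeks in CA (exact permutation p = 0.86). Adjusted over these and the regional test, all of these exact permutation tests had p = 0.918.

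Between the regions the ratio differed by more than the spread between libraries. In CA the group means were 9.94 ± 0.14, 9.94 ± 0.18, 9.96 ± 0.16 and 9.98 ± 0.27 (SD) in 2wHC, 2wEE, 10wHC and 10wEE. In DG they were 10.80 ± 0.27, 10.91 ± 0.50, 10.36 ± 0.20 and 10.41 ± 0.22 (SD). Of 25 DG libraries, 18 lay above every CA library. The difference, DG minus CA within strata, was 0.67 (two-sided permutation p = 1e-05, the smallest that 100000 resamples can give, and adjusted p = 5e-05). Of the 133 hairpins, 22 (16.5%) differed between the regions by at least as much, in either direction, and the median size was 0.37. By stratum the difference was 0.86 in 2wHC, 0.97 in 2wEE, 0.40 in 10wHC and 0.43 in 10wEE. At 2 weeks all 11 DG libraries lay above every CA library of their stratum, whereas at 10 weeks 4 of 6 and 4 of 8 did. How many of the 133 hairpins separated the regions in this way was not counted, so that the separation may be common.

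**Figure D3:**
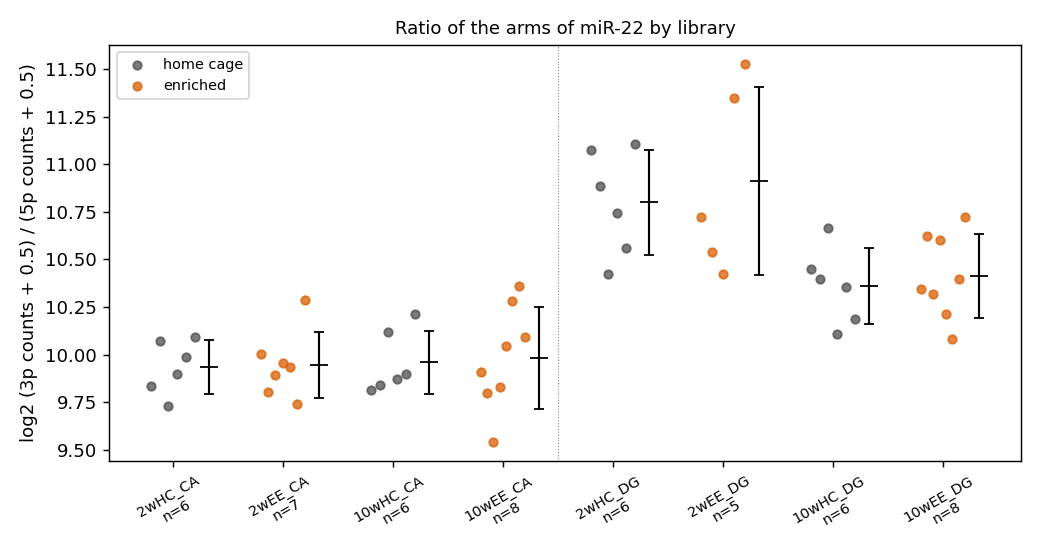
Log2 ratio of 3p to 5p counts of miR-22 in each library by group, with the mean ± SD; the axis does not start at 0. The DG libraries of 2 weeks lie at 10.42 to 11.53 and those of 10 weeks at 10.08 to 10.72, against 9.54 to 10.36 in CA.

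The fall of the ratio from 2 to 10 weeks in DG was tested after it had been seen. It was -0.44 in the home cage (exact two-sided permutation p = 0.0152, adjusted p = 0.0455 over the 12 tests of the ratio), a call that was lost in 9 of 12 tests without 1 library (adjusted p up to 0.0727). It was -0.50 with enrichment (exact permutation p = 0.0233, adjusted p = 0.0559). Over both housings it was -0.47 in DG (permutation p = 0.00046, adjusted p = 0.00276) and 0.03 in CA (permutation p = 0.685, adjusted p = 0.918). The change in DG minus that in CA was -0.50 (permutation p = 0.00151, adjusted p = 0.00604). The shuffles behind this p assume no change with time in either region, rather than an equal change in both. Of the 133 hairpins, 10 (7.52%) fell at least as far in both housings of DG. The miRNA share of the reads also differed between these groups, at 29.5 to 33.5% (mean 31.2%) in 2wHC_DG and 22.5 to 29.99% (mean 26.7%) in 10wHC_DG. With enrichment it was 30.2 to 32.97% (mean 31.9%) and 26.5 to 33.05% (mean 29.9%), and its part in the ratio was not tested.

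Depth moved with the ratio and with the 5p strand. The Spearman correlation of the library total with the ratio was -0.69 in DG (n = 25) and -0.34 in CA (n = 27). Within DG it was -0.80 among the libraries of 2 weeks (n = 11) and -0.47 among those of 10 weeks (n = 14). Without library 3 of 10wEE_CA it was -0.51 in CA (n = 26). With the CPM of the 5p strand it was 0.50 in DG and 0.40 in CA. Among the DG libraries of 2 weeks, the 4 with at least 2000000 miRNA counts had ratios of 10.42 to 10.72 (mean 10.53), and the 7 with fewer had 10.54 to 11.53 (mean 11.03). Among those of 10 weeks, the 9 with at least 2000000 counts had 10.08 to 10.60 (mean 10.32) and the 5 with fewer 10.19 to 10.72 (mean 10.52). The gap between the times was thus smaller among the deeper libraries than among the shallower ones, and the part of depth in it was not tested beyond these values. The 5p strand had 42 to 122 counts in the 7 shallower libraries of 2 weeks.

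The regions hardly shared a range of depth, so that region and depth cannot be told apart. All DG libraries held at most 3159957 miRNA counts, and all CA libraries but library 3 of 10wEE_CA at least 3144399. The 13 DG libraries of at least 2000000 counts had ratios of 10.08 to 10.72 (mean 10.38) and the 26 of CA 9.73 to 10.36 (mean 9.97). With the log2 library total as a covariate in edgeR, the 5p strand was lower in DG by -0.35 ± 0.08 on the log2 scale (SE, adjusted p = 0.000106). The 3p strand was higher by 0.19 ± 0.06 (adjusted p = 0.00814). Because of that small shared range, these fitted values do not separate depth from region.

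**Figure D4:**
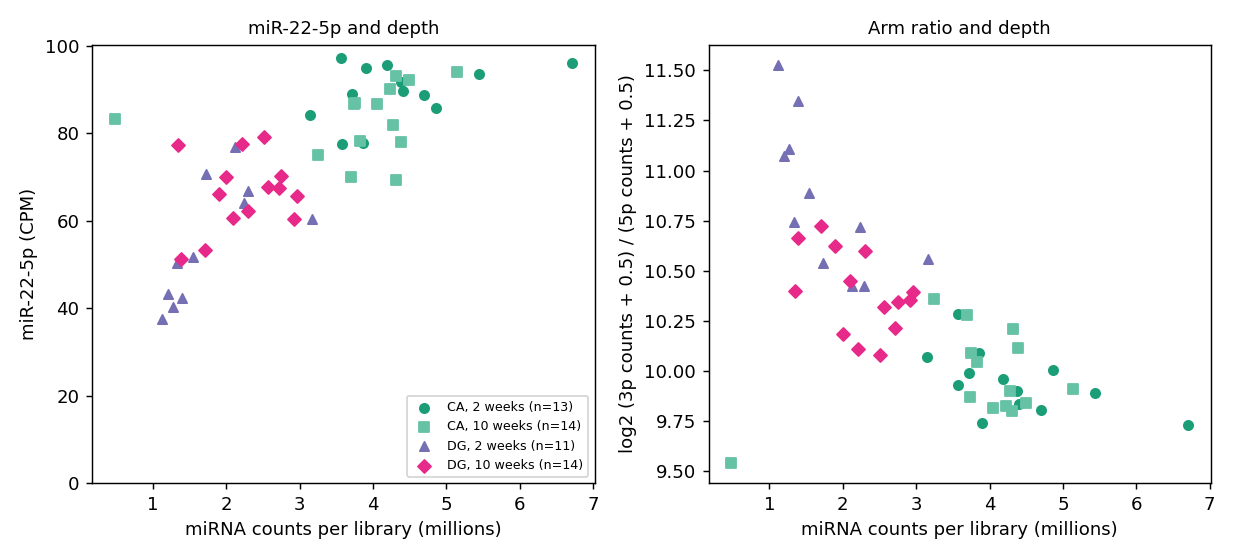
miR-22-5p in CPM (left) and the log2 ratio of 3p to 5p counts (right) against the miRNA counts of each library (axis in units of 1000000), by region and time. The highest ratios, up to 11.53, belong to DG libraries of 2 weeks with fewer than 2000000 counts.

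The miRNAs most like miR-22-3p were chosen by the Spearman correlation of their deviations from the group means with its own, among 235 miRNAs with a mean of at least 100 CPM. They were miR-674-3p (0.63), miR-330-3p (0.59), miR-671-3p (0.57), miR-423-5p (0.57) and miR-423-3p (0.55), over 52 libraries that share their depth and scaling between miRNAs. The median of the 235 correlations was -0.06. Without library 3 of 10wEE_CA the same 5 had 0.58, 0.61, 0.58, 0.53 and 0.53. All 5 were far less abundant, with means of 294 to 575 CPM. In DG after 2 weeks, where miR-22-3p separated the housings, their log2 fold changes with enrichment ran from -0.19 to 0.11, and none passed (smallest adjusted p = 0.624 in edgeR). From 2 to 10 weeks in enriched DG, where miR-22-3p fell, 3 of the 5 were called lower as well, as were 28 of all 525 miRNAs (5.33%). They were miR-674-3p with -0.53 ± 0.11, miR-671-3p with -0.43 ± 0.13 and miR-423-5p with -1.09 ± 0.26 (SE, adjusted p = 0.00257, 0.027 and 0.0106 in edgeR). miR-423-3p had -0.47 ± 0.19 and did not pass (adjusted p = 0.107), and miR-330-3p had 0.03 ± 0.07 (adjusted p = 0.863). miR-674-3p, miR-671-3p and miR-423-5p were also lower in home cage DG (-0.64, -0.49 and -1.03, adjusted p = 0.000272, 0.0143 and 0.0153 in edgeR). There 84 of 525 miRNAs (16%) passed, 44 of them lower, and miR-423-3p had -0.48 ± 0.19 (SE, adjusted p = 0.0869). The mRNA targets were not measured in these libraries.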

How the data were processed

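Small RNA of the CA and DG subregions was sequenced in 52 libraries. The authors deposited raw counts of reads for 1900 mature miRNAs. CASAVA 1.8.2, STAR, HTSeq and cutadapt are named, with mm10, per the submitters' processing notes. Neither further versions nor a miRNA annotation are given in the sources used here. The 5 closing rows of reads given to no miRNA were left out of library sizes. Of all reads in the deposited counts, those aligned to several places made up 59.3 to 71.0% and miRNA counts 22.5 to 36.8%. Total miRNA counts ranged from 480792 to 6706855 per library. Floors cover counting error only. Of the pairs of libraries, 0 held identical values.

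Groups and library numbers came from the sample titles. CPM used the total of all miRNA rows. Differences were tested with edgeR 4.0.16 in R 4.3.3 (quasi-likelihood F test, TMM, filterByExpr by group, no covariate), fitted on 27 CA, 25 DG or all 52 libraries, two-sided, with Benjamini-Hochberg adjustment over all miRNAs tested and a threshold of 0.05. The procedure was tested on simulated counts. The ratio of the strands was tested by permutation, exact for single housings. Alternatives were RLE scaling, library totals only, scaling without miR-127-3p, no filter on low counts and a mean of at least 10 CPM. Others were DESeq2 1.42.0, limma voom (limma 3.58.1), only the groups compared, the replicate number as a block and each library left out. In fits of all 52 libraries the block was each combination of time, housing and number. A covariate for depth, the comparison of times with enrichment, the single strata of the regional comparison and the time tests of the ratio were added after the data had been seen. The hairpin was folded with RNAfold 2.7.2.

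Besides both strands, the text names the miRNAs ranked next to miR-22-3p and the 5 most like it. A further list of miRNAs is not reported here. The strands and markers were chosen with earlier results of these data known.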

Additional observations from a re-analysis of the deposited data

Results flagged for a closer look

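miR-22-3p in library 3 of 10wEE_CA stood at 62672 CPM, far below the 81957 to 98583 CPM of the other 7 libraries of its group. This library also held the fewest miRNA counts of all, 480792.

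miR-22-3p in library 2 of 10wHC_DG stood at 104857 CPM, far above the 79271 to 85760 CPM of the other 5. This library had the fewest miRNA counts of its group, 1344283, and the lowest miRNA share of the reads of all libraries, 22.5%. In all, 24 sets of values (2 strands and their ratio in 8 groups) were examined for a sample far from the others and 2 had one, where chance gives about 1 in 20.

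The change of the log2 ratio of 3p to 5p counts from 2 to 10 weeks differed between the regions by -0.50, DG minus CA (permutation p = 0.00151, adjusted p = 0.00604 over 12 tests). The shuffles assume no change with time in either region, rather than an equal change of the ratio in both. In DG its mean was lower at 10 weeks in both housings, and the difference between the regions remained past the threshold without each of the 52 libraries in turn (-0.56 to -0.42). Depth differed between the regions and moved with the ratio in DG and, less closely, in CA. Depth also differed between the times in DG, where 4 of 11 libraries of 2 weeks and 9 of 14 of 10 weeks held at least 2000000 counts. The part of depth in this change was not tested beyond the values given above.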

How the results depend on the processing

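The lower 5p strand in DG kept direction and call under every alternative (log2 -0.59 to -0.35, and -0.54 to -0.45 leaving out libraries). So did the ratio's regional difference in 3 runs (0.58 to 0.64, and 0.63 to 0.70 leaving out libraries), none with a depth covariate. The higher 3p strand in DG passed in every fit but that without a filter on low counts (0.055, adjusted p = 0.439), and leaving out libraries gave 0.10 to 0.17. The mean of the 4 housing effects on the 3p strand passed with the filter at 10 CPM (0.12, adjusted p = 0.0322), and leaving out libraries gave 0.11 to 0.14 (adjusted p 0.00339 to 0.206). The fall of the 3p strand in enriched DG from 2 to 10 weeks was -0.20 with depth as a covariate, and leaving out libraries gave -0.34 to -0.26. The cause of these changes was not tested.

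The remaining reversals were of values near 0 that passed in no fit. For the 3p strand they were the housing effect in CA at 10 weeks with the replicate block (-0.0020), its change between times in CA with library totals only (0.0055) and the covariate (0.021), and DG minus CA at 10 weeks with only the groups compared (-0.0011) and the covariate (-0.019). For the 5p strand the housing effect in DG at 10 weeks was -0.058 with the covariate. DG minus CA of that effect at 10 weeks was -0.0086 with RLE, -0.015 with totals only, -0.0041 at 10 CPM, -0.0076 with DESeq2, -0.026 with only the groups compared and -0.11 with the covariate. Housing effects on the ratio reversed as differences of medians in CA at 2 weeks (-0.012) and in DG at 2 and 10 weeks (-0.10 and -0.0080), with the replicate block in CA at 2 and 10 weeks (-0.047 and -0.059), and with 10 added to each strand in CA at 10 weeks (-0.013). Changes of the ratio with time in CA reversed as medians in the home cage (-0.061) and over both housings (-0.0078), and with 10 added with enrichment (-0.0025).

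Leaving out each library in turn also reversed values that passed in no fit. Housing effects on the ratio then ran from -0.047 to 0.044 in CA at 2 weeks, -0.031 to 0.086 in CA at 10 weeks and -0.042 to 0.23 in DG at 2 weeks. Changes of the ratio with time ran from -0.027 to 0.054 in home cage CA and -0.018 to 0.099 in enriched CA. The 5p strand ran from -0.0045 to 0.073 (housing, CA, 10 weeks), -0.012 to 0.089 (housing, DG, 10 weeks), and -0.058 to 0.18 and -0.049 to 0.060 (DG minus CA of the housing effect at 2 and 10 weeks). The 3p strand ran from -0.060 to 0.040 (housing effect between times, CA) and -0.020 to 0.076 (DG minus CA, 10 weeks). The fall of the ratio in DG ran from -0.51 to -0.38 in the home cage (adjusted p 0.0195 to 0.0727, past the threshold in 3 of 12 fits) and -0.62 to -0.34 with enrichment (adjusted p 0.0364 to 0.174, in 3 of 13). The 3p strand in home cage DG ran from -0.22 to -0.12 between times.

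The labels do not tie equal library numbers to 1 animal. Deviations of same-numbered libraries correlated over 0.1 in 9 of 23 pairs between housings and 8 of 25 between regions. Of 48 libraries, 13 correlated best with their own number, from 0 of 6 (10wHC_CA with 10wEE_CA) to 4 of 6 (2wHC_CA with 2wHC_DG). The number expected by chance was not computed, so these counts do not settle whether animals were shared. With the replicate block the 3p strand had 0.23 between housings in DG at 2 weeks (adjusted p = 0.464) and 0.12 between regions (adjusted p = 0.00922), and the 5p strand -0.55 between regions (adjusted p = 1.44e-08). Between the regions the block was each combination of time, housing and number. That block holds housing and could not be fitted for the mean over 4 strata. Neither block changed a call of a strand, and none was run for the time tests of the ratio. Depth limits the 5p strand most, with 40 to 644 counts per library.

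Counts of miRNAs called moved by over 1.5 times in several contrasts. Enriched against home cage called 0 in CA at 2 weeks, but 9 without library 3 of 10wEE_CA, 6 with only the groups compared, 3 with the covariate and 1 with DESeq2. At 10 weeks CA had 0, but 3 without that library and 1 with the covariate, and DG had 2, with 0 to 4 elsewhere. In DG at 2 weeks 3 became 1 with only the groups compared, and over 4 strata 11 became 24 without that library, 21 with DESeq2 and 7 without a filter. Between times, 0 in home cage CA became 2 to 12 in 5 fits, 15 in enriched CA ran from 0 to 55, 84 in home cage DG fell to 51 (no filter) and 55 (only the groups compared), and 52 in enriched DG to 15 (covariate).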
